A study of Zea mays with 40 samples.

Results

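Invertases and sugar transporters handle the sucrose that the mother plant delivers to a kernel. The 8 genes described here were chosen by name and function, as the known genes of this step in the maize kernel, and not by any measured value. Earlier results of these data were known when the choice was made. They were 8 of the 65196 rows of the expression table. The 4 cell wall invertases were MN1 (GRMZM2G119689, the miniature1 gene, also called INCW2), INCW1 (GRMZM2G139300), INCW3 (GRMZM2G123633), and GRMZM2G119941, which had no entry in the RefSeq gene table and was taken as a cell wall invertase only by the choice of genes. The vacuolar invertases were IVR1 (GRMZM2G394450, listed in the table under its symbol) and IVR2 (GRMZM2G089836). The transporters were SWEET4c (GRMZM2G137954, for which the RefSeq gene table held an entry but no SWEET name) and SUT1 (GRMZM2G034302).

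RNA was sequenced from kernels of 4 maize inbred lines, labelled T191, T147, T209, and T210, on 5 days during filling. The days, counted from pollination (DAP), were 10, 20, 30, 40, and 50. The study describes the sampled lines as the 2 parents of a recombinant inbred population, DH1M and T877, and 2 extreme inbred lines of that population, YZU147 and YZU191, whose numbers are those of the labels T147 and T191. Which of T209 and T210 is which parent is not given by the labels, and no treatment is named. Seeds from the middle of 2 similar ears gave 2 libraries for each of the 20 combinations of line and DAP. The limma p-values below rest on the spread between the 2 ears of a group, pooled for each gene over all groups fitted. They do not measure the spread of the compared groups alone. Whole kernels were used, and in such bulk samples fewer cells of a type and less RNA per cell cannot be told apart.

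A kernel receives sucrose from the phloem through maternal tissue at its base, where the basal endosperm transfer layer takes it up. Cell wall invertases split sucrose into glucose and fructose outside the cells, SWEET proteins let sugars pass along their gradient, and SUT proteins move sucrose together with protons. Vacuolar invertases split sucrose inside the cells, where they bear on cell expansion and on the hexose level. Mutants of miniature1 and of SWEET4c in maize form small or empty kernels, which is why both genes are known as genes of early filling. Sequences of the 8 genes were not used here.

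Values are FPKM, a count scaled by gene length and by the size of the library, so that levels could be compared between genes. Over the 40 libraries, relative depth ranged from 0.612 to 2.30 times the median library, and Spearman's rho between the ears of a group ranged from 0.844 to 0.950. The label "kernel" was checked against marker genes. Summed FPKM was 3952 to 12179 over 9 starchy endosperm genes at 10 DAP and 33937 to 70226 over 5 embryo genes at 30 DAP, while 2 genes of green tissue together never passed 4.01. Not every gene of these lists was high. The embryo gene lec1 never passed 0.209 FPKM at 30 DAP. The starchy endosperm gene gz27 ranged from 0.289 to 7334 FPKM at 10 DAP, with a median of 8.99. The 6 genes of the transfer layer (betl1, betl2, betl3, betl4, betl10, and meg1) summed to 1550 to 3769 FPKM at 10 DAP and to at most 4.01 FPKM at 40 and 50 DAP. Both T191 libraries of ear 2 at 20 and 30 DAP stood apart in this sum, with 19.0 and 5.25 FPKM, against 192 and 101 FPKM in ear 1 of the same groups. The meg1 gene was at 0 in these 2 libraries. The genes were not equally low, since betl4 had at least 16.1 FPKM in every library at 20 DAP and thus made up most of the 19.0 FPKM. The ears of T191 at 20 DAP also differed in the 5 embryo genes, with sums of 5946 and 23474 FPKM.

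MN1 was the most abundant of the 8 transcripts at 10 DAP in every library and was nearly gone by 40 DAP. At 10 DAP, MN1 had 484 and 286 FPKM in the ears of T191, 676 and 750 in T147, 180 and 233 in T209, and 794 and 272 in T210. At 20 DAP, it had 27.7 and 0.589 FPKM in T191, 55.4 and 77.6 in T147, 21.4 and 11.1 in T209, and 20.7 and 8.37 in T210. The values of the 2 DAP did not overlap in any line. Mean MN1 FPKM was lower at 20 than at 10 DAP by 10.7-fold in T147, 12.7-fold in T209, 27.2-fold in T191, and 36.7-fold in T210.

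At 30 DAP, MN1 had 0.761 and 0.0303 FPKM in T191, 47.7 and 22.5 in T147, 0.0834 and 0.758 in T209, and 7.63 and 25.0 in T210. T147 and T210 thus still carried MN1 transcripts in both ears, whereas both ears of T191 and T209 were under 1 FPKM. At 40 and 50 DAP, no library had more than 0.588 FPKM, and 4 libraries were listed at 0.

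**Figure D1:**
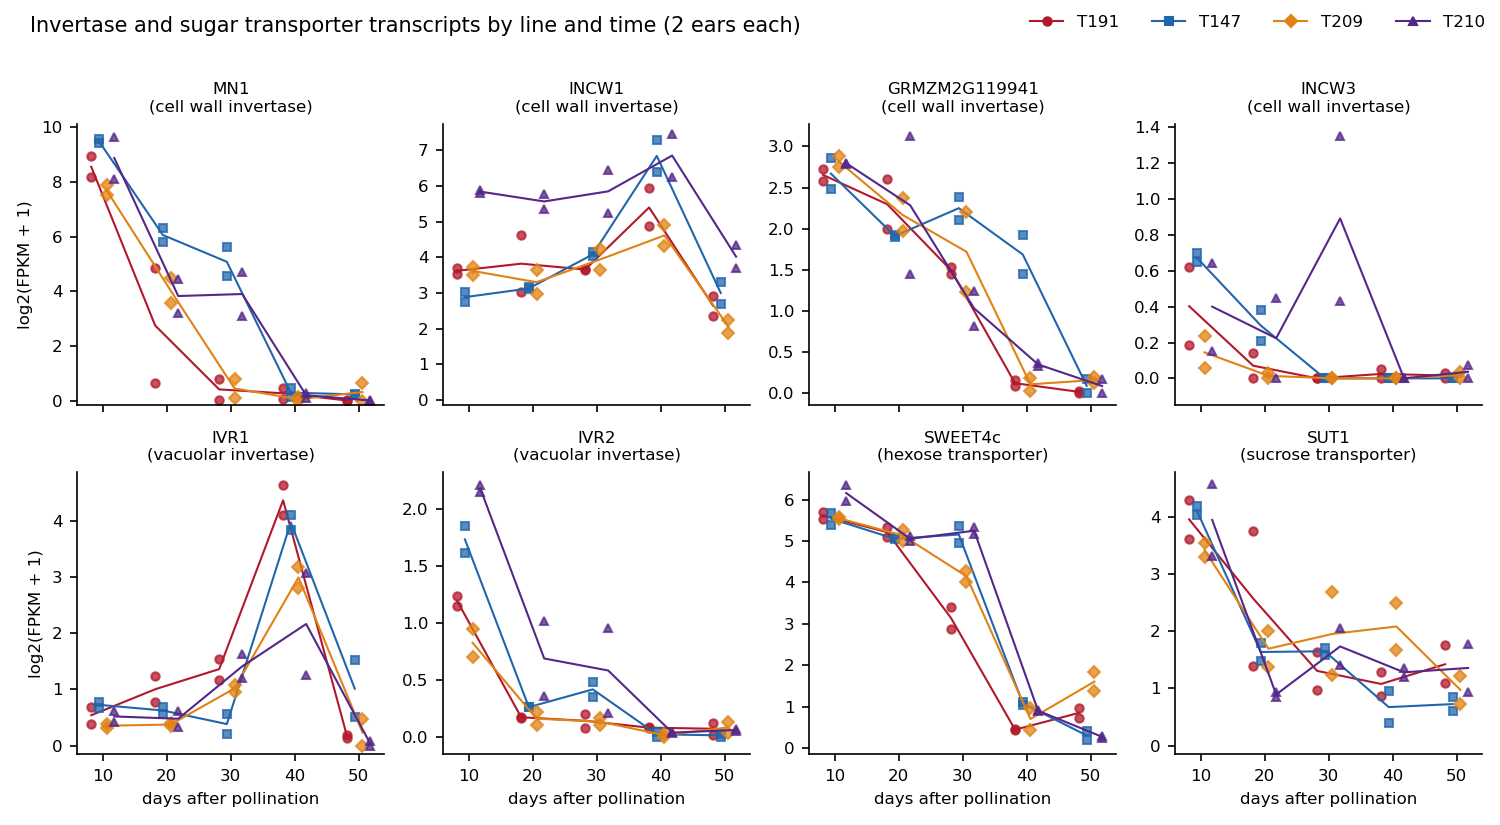
The plots show log2(FPKM + 1) of each gene against DAP, with a point for each ear, a line through the mean of the 2 ears, and small sideways shifts to part the lines. MN1, GRMZM2G119941, IVR2, SWEET4c, and SUT1 had their highest means at 10 DAP, and INCW1 and IVR1 at 40 DAP, in each of the 4 lines.

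INCW1, the other well expressed cell wall invertase gene, followed a different course. It was above 1 FPKM in all 40 libraries, with a median of 12.1 FPKM. At 10 DAP, INCW1 had 12.1 and 10.6 FPKM in T191, 5.71 and 7.11 in T147, 10.4 and 12.2 in T209, and 58.4 and 54.5 in T210. Both ears of T210 stood above all 6 libraries of the other lines at this time. At 40 DAP, INCW1 reached 59.98 and 28.2 FPKM in T191, 82.9 and 156 in T147, 29.2 and 18.9 in T209, and 176 and 74.5 in T210. Each line had its highest mean at this time. At 50 DAP, the values were 4.15 and 6.57 FPKM in T191, 5.44 and 8.93 in T147, 2.67 and 3.72 in T209, and 11.9 and 19.4 in T210. The 40 DAP values lay above the 50 DAP values in every line without overlap.

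GRMZM2G119941 was far lower, with a range of 4.61 to 6.39 FPKM over the 8 libraries at 10 DAP and of 0 to 0.140 FPKM at 50 DAP. T147 kept 2.79 and 1.73 FPKM of it at 40 DAP, where the other 6 libraries had at most 0.287 FPKM. INCW3 was hardly detected. It was listed at 0 in 21 of the 40 libraries, reached 1 FPKM only in ear 2 of T210 at 30 DAP (1.55 FPKM, against 0.348 in ear 1), and was not tested because it failed the filter on low values. At 10 DAP, INCW3 ranged from 0.0390 to 0.624 FPKM over the 8 libraries.

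The make-up of the cell wall invertase transcripts therefore turned over during filling. MN1 made up a median of 93.6% of the summed FPKM of the 4 genes at 10 DAP (range 81.8 to 98.4% over 8 libraries), 55.1% at 20 DAP, 11.03% at 30 DAP, and 0.184% at 40 DAP. INCW1 made up 4.17% at 10 DAP, 32.4% at 20 DAP, 80.6% at 30 DAP, and 99.3% at 40 DAP (range 96.6 to 99.8%). The spread between libraries was widest in the middle of this series, since MN1 ranged from 2.02 to 88.0% at 20 DAP and from 0.227 to 71.0% at 30 DAP. The 2.02% was ear 2 of T191, against 73.1% in ear 1 of the same group. The medians also pool lines that differed in both ears. At 20 DAP, the MN1 share was 83.6 and 88.0% in T147, 68.8 and 41.4% in T209, and 24.996 and 16.7% in T210. At 30 DAP, it was 71.0 and 52.99% in T147 and 16.8 and 21.8% in T210. The ears of T191 then had 5.31 and 0.227%, and those of T209 had 0.647 and 3.39%. The 11.03% at 30 DAP thus lay below every ear of T147 and T210 and above every ear of T191 and T209. The summed level did not fall steadily, although the ears at 30 and 40 DAP overlapped in T209 and T210. No test was made of this sum. It averaged 44.4 ± 22.3 FPKM in T191, 122 ± 51.5 in T147, 24.2 ± 7.25 in T209, and 126 ± 71.8 in T210 at 40 DAP (SD, n = 2 each), against 13.8 ± 0.711 FPKM in T191, 54.8 ± 17.5 in T147, 17.6 ± 6.69 in T209, and 80.3 ± 49.1 in T210 at 30 DAP.

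**Figure D2:**
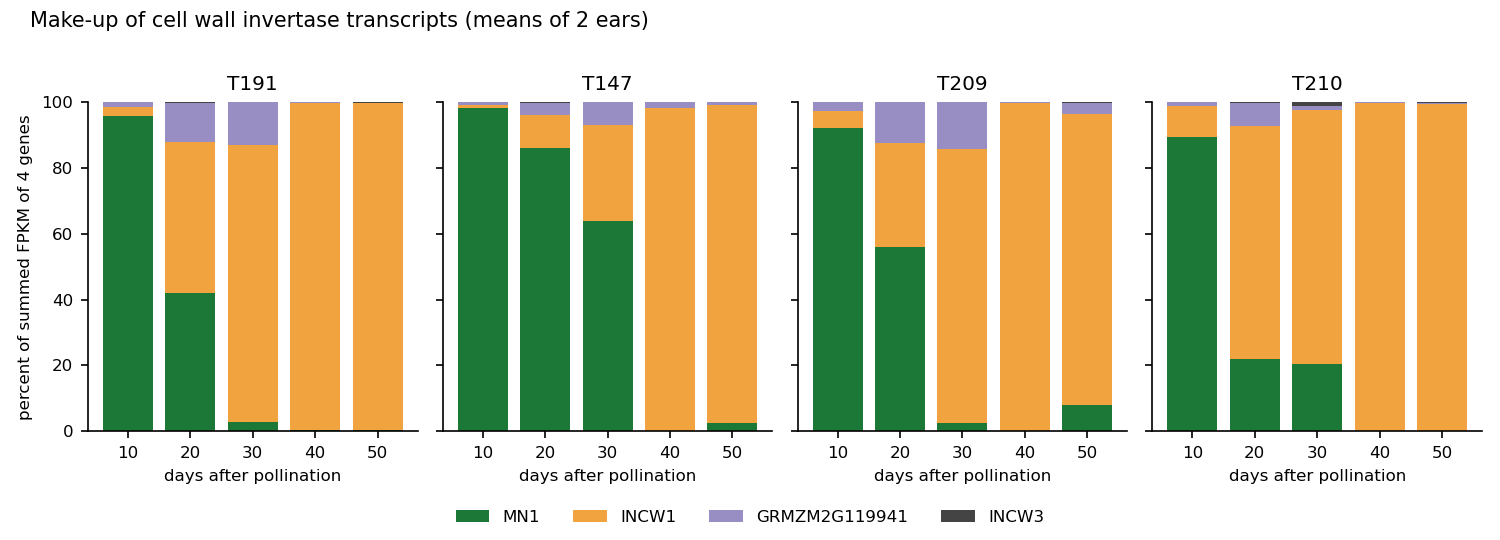
The bars show the percent of the summed mean FPKM of the 4 cell wall invertase genes that each gene made up, by line and DAP (means of 2 ears). MN1 filled most of the bar at 10 DAP and INCW1 nearly all of it at 40 DAP, and T147 kept the largest MN1 part at 20 and 30 DAP.

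IVR1 was the vacuolar invertase gene that peaked at 40 DAP. In maize root tips, IVR1 is known to be raised when sugar is short and IVR2 when sugar is plentiful. Over the 24 libraries at 10 to 30 DAP, IVR1 stayed between 0.151 and 2.08 FPKM. At 40 DAP, IVR1 had 23.7 and 16.1 FPKM in T191, 13.2 and 16.2 in T147, 6.02 and 7.996 in T209, and 7.37 and 1.39 in T210. Both ears stood above all earlier values of their line in T191, T147, and T209, whereas ear 2 of T210 did not. At 50 DAP, no library had more than 1.86 FPKM. IVR2 took the reverse course at a low level. At 10 DAP, IVR2 had 1.22 and 1.36 FPKM in T191, 2.06 and 2.62 in T147, 0.630 and 0.929 in T209, and 3.63 and 3.44 in T210, and at 40 and 50 DAP it never passed 0.0951 FPKM. IVR2 made up a median of 78.1% of the summed FPKM of IVR1 and IVR2 at 10 DAP, and IVR1 made up 99.8% at 40 DAP.

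SWEET4c, known from other work as a hexose transporter of the transfer layer, was abundant through 20 DAP and scarce from 40 DAP on. At 10 DAP, it had 45.4 and 50.8 FPKM in T191, 50.6 and 41.1 in T147, 46.7 and 45.1 in T209, and 80.6 and 61.6 in T210. At 20 DAP, all 8 libraries lay between 30.8 and 39.2 FPKM. The highest was ear 2 of T191, which had the lowest transfer layer sum at this time (19.0 FPKM). The closeness of the lines at 20 DAP ended at 30 DAP. SWEET4c then had 9.60 and 6.29 FPKM in T191, 40.4 and 29.8 in T147, 15.1 and 18.5 in T209, and 34.8 and 39.4 in T210. At 40 DAP, the range was 0.342 to 1.17 FPKM. At 50 DAP, SWEET4c had 0.661 and 0.948 FPKM in T191, 0.321 and 0.147 in T147, 1.57 and 2.58 in T209, and 0.227 and 0.181 in T210, so that T209 and T191 lay above T147 and T210, which had been highest at 30 DAP.

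SUT1, a sucrose transporter best known for phloem loading, was a transcript of 10 DAP. At that time, SUT1 had 18.8 and 11.2 FPKM in T191, 15.4 and 17.2 in T147, 8.88 and 10.6 in T209, and 22.8 and 9.02 in T210. From 20 DAP on, 31 of 32 libraries were at or below 5.41 FPKM. The exception was ear 2 of T191 at 20 DAP, with 12.5 FPKM, against 1.63 FPKM in ear 1. This ear is 1 of the 2 libraries with low transfer layer genes.

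Tests were made with limma on the scale of log2(FPKM + 1), and a call means a Benjamini-Hochberg adjusted p under 0.05 over all 43394 genes tested. The differences given next are on that scale, which understates the change of low genes such as IVR2. Of the 8 genes, 7 passed the filter of at least 1 FPKM in at least 2 libraries, and all 7 changed over DAP, as did 85.8% of all genes tested. The F statistic of SWEET4c was 851 (limma adjusted p = 3.54e-22).

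Between 10 and 20 DAP, 5 of the 7 genes fell, where 25.7% of all genes did. Of all calls at this step, 27.7% were higher at 20 DAP, a share that was 44.3% under median ratio scaling of the libraries. MN1 differed by -4.47 (SE 0.39), SUT1 by -2.16 (SE 0.27), and IVR2 by -1.16 (SE 0.10), with limma adjusted p of 1.40e-09, 7.60e-07, and 5.23e-10. SWEET4c fell by 0.60 (SE 0.12, limma adjusted p = 0.000199) and GRMZM2G119941 by 0.57 (SE 0.18, limma adjusted p = 0.0126). The 6 transfer layer genes all fell at this step, with a median difference of -4.38, far more than SWEET4c. Under median ratio scaling SWEET4c differed by -0.35 and kept its call. The call for GRMZM2G119941 was lost under median ratio scaling (-0.36, limma adjusted p = 0.143) and with a pseudocount of 0.1 (limma adjusted p = 0.0517), and its difference was -0.36 without ear 2 of T210 at 20 DAP. INCW1 and IVR1 differed by -0.04 and 0.09. The 3 housekeeping genes measured fell at this step too. Median act1 was 64.9 FPKM at 20 DAP, against 111 FPKM at 10 DAP, median gapc1 was 62.04 FPKM, against 170 FPKM at 10 DAP, and median gapc2 was 104 FPKM, against 284 FPKM at 10 DAP. The part of the shift seen in these genes in the falls of SWEET4c and GRMZM2G119941 was not tested.

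Between 20 and 30 DAP, 3 of the 7 genes fell, where 15.7% of all genes did. These were MN1 (-1.70, SE 0.39, limma adjusted p = 0.00113), SWEET4c (-0.69, SE 0.12, limma adjusted p = 4.50e-05), and GRMZM2G119941 (-0.54, SE 0.18, limma adjusted p = 0.0173). The last call was lost without ear 2 of T191 at 20 DAP, ear 1 of T209 at 30 DAP, or ear 1 of T210 at 20 DAP, when the difference was -0.47, -0.42, and -0.33. INCW1 differed by 0.43 (limma adjusted p = 0.176), and by 0.63 without ear 2 of T191 at 20 DAP, when it was called (limma adjusted p = 0.0344).

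Between 30 and 40 DAP, 2 of the 7 genes rose and 4 fell, where 17.3% of all genes rose and 18.6% fell. IVR1 rose by 2.33 (SE 0.19, limma adjusted p = 8.38e-10) and INCW1 by 1.54 (SE 0.24, limma adjusted p = 1.72e-05). SWEET4c fell by 3.64 (SE 0.12, limma adjusted p = 1.05e-16), the largest fall of the 7 genes at this step. MN1 fell by 2.25 and GRMZM2G119941 by 1.06. The fall of IVR2 by 0.28 (limma adjusted p = 0.0235) was lost without ear 1 of T147 at 30 DAP (-0.26) or ear 2 of T210 at 30 DAP (-0.19). SUT1 differed by -0.38 (limma adjusted p = 0.304).

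Between 40 and 50 DAP, 3 of the 7 genes fell and none rose, where 16.9% of all genes fell and 32.8% changed either way. At this step, no limma adjusted p of the other 4 genes was under 0.731. IVR1 fell by 3.01 (SE 0.19, limma adjusted p = 2.31e-11) and INCW1 fell by 2.9985 (SE 0.24, limma adjusted p = 1.47e-09). Both falls were called in each of the 4 lines, although that of IVR1 in T210 was not without ear 1 at 40 DAP (-1.22, limma adjusted p = 0.0522). The fall of GRMZM2G119941 by 0.48 (limma adjusted p = 0.0387) kept its call in 3 of 16 fits that left out 1 library, over which its limma adjusted p ranged from 0.0314 to 0.0989. Without ear 1 of T147 at 40 DAP, the difference was -0.42.

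**Figure D3:**
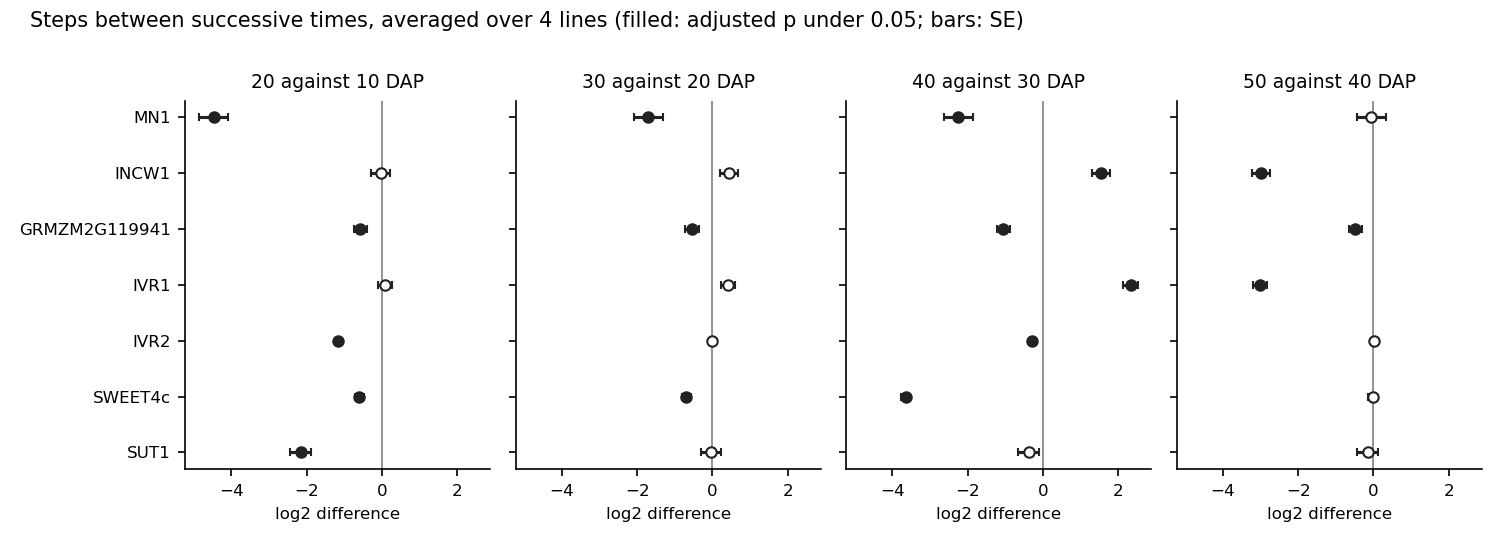
The points show the log2(FPKM + 1) difference of each step between successive DAP, averaged over the 4 lines, with bars for the SE and filled points for an adjusted p under 0.05. MN1, SUT1, and IVR2 had their largest fall at the first step, SWEET4c at the step to 40 DAP, and INCW1 and IVR1 rose to 40 DAP and fell to 50 DAP.

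When 40 and 50 DAP were averaged and set against the average of 10 and 20 DAP, all 7 genes were called, as were 74.8% of all genes (37.6% higher and 37.2% lower). IVR1 (1.29, SE 0.13) and INCW1 (0.46, SE 0.17) were higher late, and MN1 (-6.22), SWEET4c (-4.65), GRMZM2G119941 (-2.13), SUT1 (-1.58), and IVR2 (-0.85) were lower. With 50 DAP alone against 10 DAP alone, INCW1 was lower (-1.06, limma adjusted p = 0.000347) and IVR1 differed by -0.17 (limma adjusted p = 0.415), as their peak at 40 DAP did not enter.

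Within single lines, the course of MN1 and SWEET4c was not the same. The test of a different course over DAP in the 4 lines passed for 4 of the 7 genes, SWEET4c (limma adjusted p = 1.55e-05), IVR1 (limma adjusted p = 0.0134), MN1 (limma adjusted p = 0.0172), and IVR2 (limma adjusted p = 0.0231), where 22.9% of all genes passed. It did not pass for INCW1 (limma adjusted p = 0.0589), GRMZM2G119941 (limma adjusted p = 0.0638), or SUT1 (limma adjusted p = 0.276). INCW1 passed without any 1 of 7 libraries (limma adjusted p between 0.0143 and 0.0494) and under median ratio scaling (limma adjusted p = 0.0312). GRMZM2G119941 passed without any 1 of 5 libraries (limma adjusted p between 0.00176 and 0.0441) and with a pseudocount of 0.1 (limma adjusted p = 0.00797). SUT1 passed without ear 1 of T191 at 20 DAP (limma adjusted p = 0.0201). IVR2 did not pass without ear 1 of T209 or ear 1 of T210 at 10 DAP, under median ratio scaling (limma adjusted p = 0.0518), or with a pseudocount of 0.1 (limma adjusted p = 0.216).

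Between 10 and 20 DAP, MN1 and IVR2 fell in each of the 4 lines, with MN1 differences between -5.79 in T191 and -3.42 in T147. SUT1 also fell in T147 (-2.48), T209 (-1.73), and T210 (-3.06), and SWEET4c in T210 (-1.10). The genes called were thus 2 of 7 in T191, 3 in T147, 3 in T209, and 4 in T210, where 15.4, 10.1, 11.4, and 13.8% of all genes in these lines were called. In T191, SUT1 differed by -1.38 (limma adjusted p = 0.0910), and by -2.57 without ear 2 at 20 DAP, when it was called (limma adjusted p = 0.00316). MN1 in T191 differed by -3.70 without the same ear. The MN1 call in T147 was lost without ear 2 at 10 DAP (limma adjusted p = 0.0514), without ear 1 at 20 DAP (limma adjusted p = 0.0653), and with a pseudocount of 0.1 (limma adjusted p = 0.0711). The SUT1 call in T147 was lost without ear 1 at 20 DAP (limma adjusted p = 0.0563), and the SWEET4c call in T210 without ear 1 at 10 DAP (limma adjusted p = 0.0557). GRMZM2G119941 in T210 was called without ear 1 at 20 DAP (-1.35, limma adjusted p = 0.00869). In T209, the call of IVR2 was lost without any 1 of 3 libraries, and that of SUT1 without any of the 4.

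Between 20 and 30 DAP, MN1 fell in T191 (-2.33, limma adjusted p = 0.0405) and T209 (-3.57, limma adjusted p = 0.00202), and so did SWEET4c (-2.08 in T191 and -0.99 in T209). In T147 none of the 7 genes was called, and in T210 GRMZM2G119941 alone (-1.25), a call that was lost without ear 1 at 20 DAP (-0.42), ear 1 at 30 DAP (-1.05), or ear 2 at 30 DAP (-1.46). Over all genes, 16.2% were called in T191, 5.36% in T147, 17.1% in T209, and 10.7% in T210. The MN1 call in T191 was lost without ear 1 at 20 DAP (-0.24), ear 1 at 30 DAP (-2.71), or ear 2 at 30 DAP (-1.94), and the difference was -4.41 without ear 2 at 20 DAP. The SWEET4c call in T209 was lost without ear 2 at 20 DAP (limma adjusted p = 0.0647) or ear 1 at 30 DAP (limma adjusted p = 0.0554).

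Between 30 and 40 DAP, MN1 fell in T147 (-4.77, limma adjusted p = 6.98e-05) and T210 (-3.69, limma adjusted p = 0.00185), the lines in which no call was made for it at the step before. The T210 call was lost without ear 2 at 30 DAP (-2.89, limma adjusted p = 0.0717). SWEET4c fell in each of the 4 lines, with differences between -4.35 in T210 and -2.70 in T191. IVR1 rose in T191 (3.0002), T147 (3.58), and T209 (1.97), and it differed by 0.75 in T210, where it was called without ear 2 at 40 DAP (1.66, limma adjusted p = 0.00177). INCW1 rose in T147 (2.76, limma adjusted p = 0.000164) and T191 (1.74, limma adjusted p = 0.0165), and differed by 0.67 in T209 and 1.004 in T210, which were not called. The T191 call was lost without either ear at 30 DAP or ear 1 at 40 DAP, when the difference was 1.21. GRMZM2G119941 fell in T191 (-1.37) and T209 (-1.61). Its T191 call was lost without ear 2 at 30 DAP (limma adjusted p = 0.0565), ear 1 at 40 DAP (limma adjusted p = 0.0582), or ear 2 at 40 DAP (limma adjusted p = 0.0544), and its T209 call without ear 2 at 30 DAP (-1.13, limma adjusted p = 0.0614). IVR2 in T210 was called without ear 1 at 30 DAP (-0.91, limma adjusted p = 0.00395). The called genes were 4 of 7 in T191, 4 in T147, 3 in T209, and 2 in T210, against 13.6, 16.5, 17.4, and 12.3% of all genes in these lines.

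Between 40 and 50 DAP, INCW1 and IVR1 made up both calls in T191 (6.30% of all genes) and in T210 (5.60% of all genes). In T147 (22.5% of all genes), GRMZM2G119941 (-1.60) and SWEET4c (-0.78) fell as well. In T209 (7.72% of all genes), SWEET4c rose by 0.90 (limma adjusted p = 0.0176), the only rise of the 7 genes at this step, and the call was lost without ear 2 at 40 DAP (0.63) or ear 2 at 50 DAP (0.67). The SWEET4c call in T147 was lost without any 1 of 3 libraries, over which the difference was between -0.81 and -0.68.

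Late filling, set against early filling within a line, gave 6 called genes of 7 in T191 (53.4% of all genes), 7 in T147 (52.5%), 6 in T209 (53.4%), and 5 in T210 (43.4%). MN1, GRMZM2G119941, IVR2, SWEET4c, and SUT1 were lower late in each of the 4 lines. INCW1 was higher late in T147 alone (1.92, limma adjusted p = 4.17e-05), and differed by 0.30 in T191, -0.13 in T209, and -0.27 in T210. IVR1 was not called in T210 (0.60, limma adjusted p = 0.0699), and was called without ear 2 at 40 DAP (1.05). The SUT1 calls in T209 (-1.03) and T210 (-1.10) were each lost without any 1 of 4 libraries, with differences between -0.97 and -0.82 in T209 and between -1.08 and -0.79 in T210.

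Lines were compared in the pairs T191 against T147, the 2 extreme lines by their numbers, and T209 against T210. Averaged over the 5 DAP, 2 of the 7 genes differed between T191 and T147, where 22.4% of all genes did. MN1 was lower in T191 by 1.83 on the log2 scale (SE 0.35, limma adjusted p = 0.000314, exact permutation p within DAP = 0.0018, two-sided and unadjusted). Both ears of T191 were below both ears of T147 at 4 of 5 DAP. These include 50 DAP, where the values were near 0, with 0.0346 and 0 FPKM in T191, against 0.207 and 0.169 FPKM in T147. SWEET4c was lower in T191 by 0.38 (SE 0.10, limma adjusted p = 0.00999), but its exact permutation p was 0.206 and the call was lost with a pseudocount of 0.1 (limma adjusted p = 0.0772). Both ears of T191 were below both ears of T147 at 2 DAP and above them at 2 others. The other 5 genes were not called, with differences between -0.41 (GRMZM2G119941, limma adjusted p = 0.0664) and 0.31 (SUT1, limma adjusted p = 0.405). Without ear 2 of T191 at 20 DAP, GRMZM2G119941 differed by -0.47 and was called (limma adjusted p = 0.0430).

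The difference was largest at 30 DAP, where 2 of the 7 genes were called, with 12.5% of all genes. MN1 was lower in T191 by 4.65 (SE 0.77, limma adjusted p = 0.000185) and SWEET4c by 2.02 (SE 0.23, limma adjusted p = 1.97e-06). Both calls held without any single library of these groups, over which the difference ranged from -5.18 to -4.13 for MN1 and from -2.29 to -1.75 for SWEET4c. At this time, the 9 starchy endosperm genes were all lower in T191 (median -3.96), with sums of 846 and 142 FPKM in T191, against 11737 and 5128 FPKM in T147. None of the 6 transfer layer genes was called at 30 DAP, with a median of -1.59 and sums of 101 and 5.25 FPKM in T191, against 168 and 69.5 FPKM in T147. MN1 amounted to 0.754 and 0.577% of the transfer layer sum in the ears of T191, against 28.4 and 32.4% in T147. The part of either marker group in the differences of MN1 and SWEET4c was not tested.

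At 20 DAP, MN1 was the only one of the 7 genes called between T191 and T147, with 6.30% of all genes. It was lower in T191 by 3.30 (SE 0.77, limma adjusted p = 0.0101), a value that rested on the T191 library of ear 2 with low transfer layer genes. Without this library the difference was -1.21 (limma adjusted p = 0.603), without ear 1 of T191 it was -5.39 (limma adjusted p = 4.03e-06), and without ear 2 of T147 it was -3.06 (limma adjusted p = 0.110). SUT1, which was high in the same library, differed by 0.94 (limma adjusted p = 0.350), and by 2.12 without ear 1 of T191 (limma adjusted p = 0.0107).

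At 40 DAP, 2 of the 7 genes were called, with 13.8% of all genes. GRMZM2G119941 was lower in T191 by 1.57 (SE 0.35, limma adjusted p = 0.00336) and INCW1 by 1.45 (SE 0.48, limma adjusted p = 0.0455). Each call hung on single libraries. Without ear 1 of T147, GRMZM2G119941 differed by -1.33 (limma adjusted p = 0.0712). INCW1 differed by -1.90 without ear 1 of T147, by -0.99 without ear 2 of T147, and by -0.91 without ear 2 of T191, with limma adjusted p of 0.0510, 0.338, and 0.370. No gene of the 7 was called at 10 DAP (6.24% of all genes) or 50 DAP (8.69% of all genes). The smallest limma adjusted p at these times was 0.111 for IVR2 at 10 DAP.

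Between T209 and T210, 2 of the 7 genes differed when averaged over the 5 DAP, where 40.0% of all genes did. INCW1 was lower in T209 by 2.12 (SE 0.22, limma adjusted p = 3.00e-08). Both ears of T209 were below both ears of T210 at 5 of 5 DAP, and the exact permutation p of 0.000257 was the smallest that 7776 arrangements can give. The difference was called at each DAP, with values of -2.22 at 10 DAP, -2.26 at 20 DAP, -1.91 at 30 DAP, -2.24 at 40 DAP, and -1.96 at 50 DAP. The median of all genes at 40 DAP was 0.13 on this scale and 0 after median ratio scaling. The calls at 20, 30, and 50 DAP were each lost without either of 2 libraries. At 20 DAP the difference was -1.92 without ear 1 of T209 and -2.05 without ear 1 of T210. At 30 DAP it was -1.60 without ear 1 of T209 and -1.30 without ear 2 of T210, and at 50 DAP it was -1.78 without ear 1 of T209 and -1.63 without ear 2 of T210.

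IVR2 was lower in T209 by 0.47 (SE 0.09, limma adjusted p = 9.99e-05, exact permutation p = 0.00643). The difference was called at 10 DAP (-1.35, SE 0.19, limma adjusted p = 2.00e-05), when IVR2 was highest, and at no other DAP. MN1 differed by -0.85 (SE 0.35, limma adjusted p = 0.0532, exact permutation p = 0.0959). It was called without any 1 of 4 libraries, with differences of -0.94 without ear 1 of T209 at 20 DAP, -1.004 without ear 2 of T210 at 10 DAP, -0.97 without ear 2 of T210 at 20 DAP, and -1.01 without ear 1 of T210 at 30 DAP.

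At 30 DAP, 3 of the 7 genes were called between T209 and T210, with 13.0% of all genes, and all 3 were lower in T209. MN1 was lower by 3.44 (SE 0.77, limma adjusted p = 0.00330) and SWEET4c by 1.10 (SE 0.23, limma adjusted p = 0.00197), beside INCW1. Without ear 2 of T210, MN1 differed by -2.64 and was not called (limma adjusted p = 0.106). Of the 9 starchy endosperm genes, 8 were also lower in T209 at 30 DAP (median -2.20), with sums of 780 and 401 FPKM in T209, against 4224 and 9038 FPKM in T210. The 6 transfer layer genes were not called, with a median of 0.53 and sums of 61.1 and 47.2 FPKM in T209, against 26.4 and 38.3 FPKM in T210. MN1 amounted to 0.136 and 1.61% of the transfer layer sum in T209, against 28.9 and 65.4% in T210. The part of the starchy endosperm genes in these differences was not tested.

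SWEET4c had the opposite sign at 50 DAP, where it was higher in T209 by 1.34 (SE 0.23, limma adjusted p = 0.000244), with INCW1 as the other called gene of the 7 and 17.9% of all genes called. At 10 DAP, INCW1 and IVR2 were called (10.6% of all genes), and at 20 DAP (7.13%) and 40 DAP (27.4%) INCW1 alone. IVR1 at 40 DAP differed by 0.83 between T209 and T210 (limma adjusted p = 0.106), and by 1.73 without ear 1 of T210 (limma adjusted p = 0.000857). IVR2 differed by -0.86 at 20 DAP without ear 2 of T210 and by -0.82 at 30 DAP without ear 1 of T210, and was then called.

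**Figure D4:**
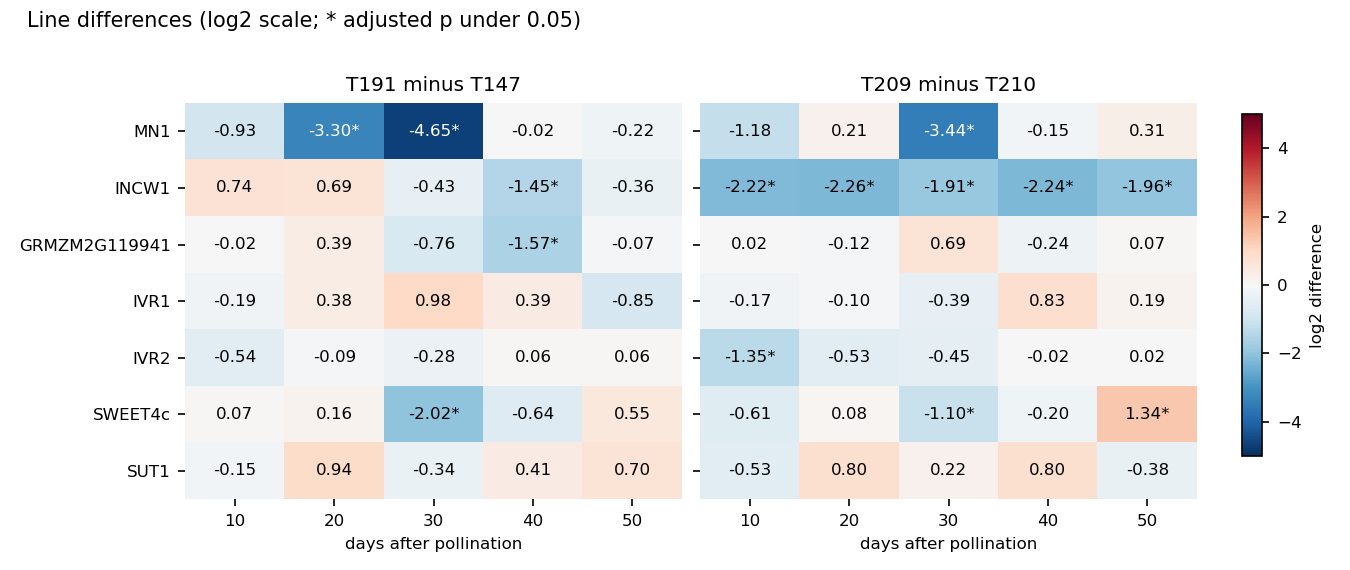
The maps show the log2(FPKM + 1) difference of each gene at each DAP, for T191 minus T147 on the left and T209 minus T210 on the right, with stars for an adjusted p under 0.05. MN1 and SWEET4c differed in both pairs at 30 DAP, and INCW1 was lower in T209 than in T210 at every DAP.

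Over all 4 lines, 5 of the 7 genes differed in their mean level over the 5 DAP, where 49.1% of all genes did. These were INCW1 (limma adjusted p = 5.01e-08), MN1, IVR2, SWEET4c, and IVR1 (limma adjusted p = 0.0162). GRMZM2G119941 (limma adjusted p = 0.0859) and SUT1 (limma adjusted p = 0.623) were not called. Without ear 1 of T210 at 20 DAP, which held the highest GRMZM2G119941 value of all libraries (7.71 FPKM, against 1.73 in ear 2), GRMZM2G119941 was called (limma adjusted p = 0.00294). It was also called without ear 2 of T210 at 20 DAP (limma adjusted p = 0.0305) or ear 2 of T209 at 30 DAP (limma adjusted p = 0.0471).

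MN1 was set against the transfer layer genes ear by ear, since it is known as a gene of that layer. At 20 DAP, MN1 amounted to 14.4 and 3.10% of the transfer layer sum in T191, 31.7 and 40.1% in T147, 8.74 and 7.61% in T209, and 15.5 and 8.55% in T210. The sum behind the 3.10% was mostly betl4. At 10 DAP, MN1 amounted to 16.1 and 18.1% in T191, 43.6 and 35.5% in T147, 10.5 and 14.6% in T209, and 21.1 and 16.9% in T210. T147 had the highest share in both ears at 10 and 20 DAP, and at 30 DAP the shares of T210 and T147 overlapped, with ear 2 of T210 highest.

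**Figure D5:**
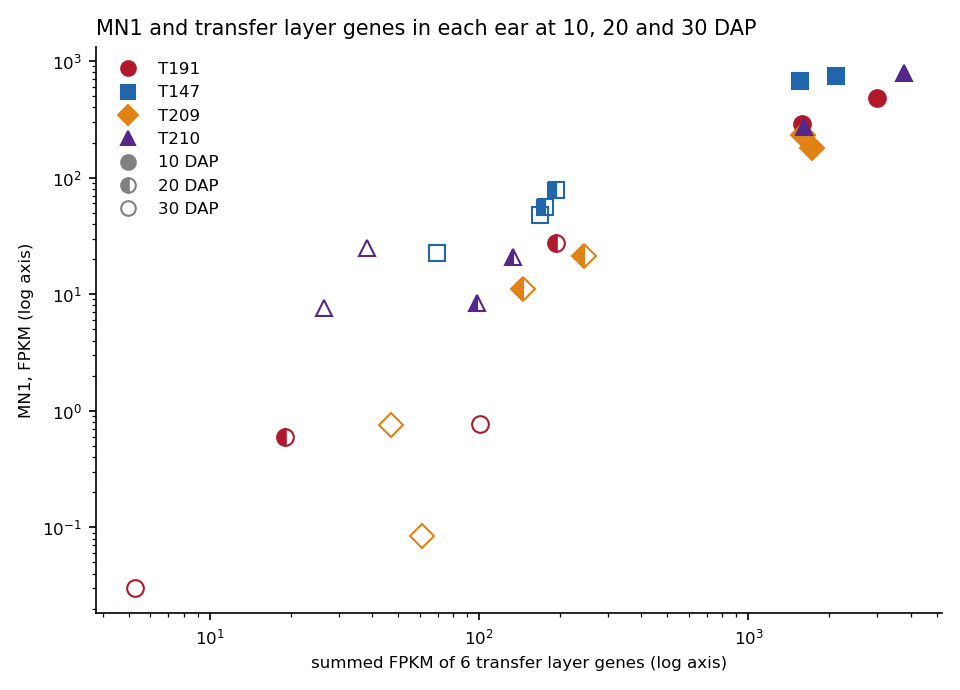
The points show MN1 FPKM against the summed FPKM of 6 transfer layer genes in each ear at 10, 20, and 30 DAP, both on log axes. The open points of T191 and T209 at 30 DAP lie under 1 FPKM of MN1, while those of T147 and T210 lie at 7.63 FPKM or more.

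The 8 further genes of sucrose use found by symbol were set beside them. They were the sucrose transporters sut2 and sut4, the fructokinases frk1 and frk2, the hexokinase hex2, and the sucrose synthases sh1, sus1, and sus2, and they were taken by symbol after the table had been seen. Between 10 and 20 DAP, 6 fell, where 25.7% of all genes did, and 1 rose, with a median of -0.84, against -0.05 over all genes. The fructokinase gene frk2 (-3.07, SE 0.22, limma adjusted p = 3.09e-11) and sus1 (-3.05, SE 0.32, limma adjusted p = 3.80e-08) fell most. Median frk2 was 8.78 FPKM at 20 DAP, against 79.7 FPKM at 10 DAP, and median sus1 was 15.7 FPKM at 20 DAP, against 110 FPKM at 10 DAP. The gene that rose was frk1 (0.91, SE 0.27, limma adjusted p = 0.0104), where 9.86% of all genes rose.

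The sucrose synthase gene sh1 was the most abundant of these transcripts. Its median was 920 FPKM at 10 DAP, 415 at 20 DAP, 81.9 at 30 DAP, 13.1 at 40 DAP, and 4.00 at 50 DAP, and it fell at each of the 4 steps. It is also 1 of the 9 starchy endosperm genes. From 20 to 30 DAP, 1 of the 8 genes rose (sus2, 1.27, where 21.2% of all genes rose) and 1 fell (sh1, -2.49, where 15.7% fell). From 30 to 40 DAP, 3 fell and hex2 rose (0.67), where 18.6% of all genes fell and 17.3% rose. From 40 to 50 DAP, 4 fell, where 16.9% of all genes did, and sut4 rose (0.73, SE 0.21, limma adjusted p = 0.00818), where 15.9% of all genes rose. The naming of sus2 and hex2 followed from their values. Between T191 and T147, sh1 (-1.57, SE 0.26, limma adjusted p = 5.77e-05) and frk2 (-0.70, SE 0.19, limma adjusted p = 0.00907) were lower in T191, and the median of the 8 genes was -0.13, against 0.03 over all genes. At 30 DAP, sh1 (-4.02) and frk2 (-1.36) were called between these lines, with 12.5% of all genes. At 40 DAP, sh1 alone was called (-3.32), with 13.8%. None of the 8 genes was called between T209 and T210 averaged over DAP, where 40.0% of all genes were called and limma gave an unadjusted p under 0.05 for 4 of the 8. At single DAP, sh1 was lower in T209 at 30 DAP (-2.90, limma adjusted p = 0.00111), with 13.0% of all genes called. The sut4 gene was higher in T209 at 50 DAP (1.57, limma adjusted p = 0.00895), with 17.9%.

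The 8 genes could be grouped by the likeness of their courses. As a description over the 20 group means, which share libraries and times, Pearson's r of log2(FPKM + 1) was 0.91 between SWEET4c and GRMZM2G119941, 0.87 between MN1 and IVR2, and 0.84 between MN1 and SWEET4c. It was 0.61 between INCW1 and IVR1, and -0.10 between MN1 and INCW1. Among 17986 named genes, the highest r to MN1 was 0.989 (GRMZM2G360529), followed by 0.986 (GRMZM2G074811). For SWEET4c it was 0.991 (GRMZM2G379773) and 0.986 (GRMZM2G079956). For GRMZM2G119941 it was 0.976 (GRMZM2G150691) and 0.973 (GRMZM2G058528), and for IVR2 0.978 (GRMZM2G030882) and 0.968 (GRMZM2G076468). For SUT1 it was 0.937 (GRMZM2G305216) and 0.933 (GRMZM5G835721). IVR1 was matched at 0.968 (AC234190.1_FG002) and 0.948 (GRMZM5G812326), while no named gene came closer to INCW1 than 0.861 (GRMZM2G329195), followed by 0.850 (GRMZM2G007835). INCW3, at its low level, was matched at 0.842 by GRMZM5G885045 and at 0.816 by SPS, a sucrose phosphate synthase gene.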

How the data were processed

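RNA of kernels was sequenced with an Illumina TruSeq kit, in 40 libraries of 4 lines, 5 DAP, and 2 ears. The authors deposited 1 table of FPKM values, calculated per gene from gene length and read counts. The submitters' processing notes name Bowtie 0.12.2, Cuffdiff, and the genome build B73 RefGen_v3, with no role given here. Every column was matched to a library by the column name in the sample's description, and no column was left out. The title of the sample gave its line, DAP, and ear number. Beside named genes stand 25650 loci assembled by the study, so that overlapping loci may share reads between them, and near-identical genes may share reads. The number of reads is unknown. Relative depth was taken from the steps of low FPKM values, with a misfit under 0.02 (natural log) in each of 780 comparisons of 2 libraries. No interval or floor is given for this reason, and values near 0 are least certain in the shallowest libraries. No 2 libraries held identical values.

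Tests were run with limma 3.58.1 in R 4.3.3 on log2(FPKM + 1), with 20 group means, empirical Bayes moderation with a trend, and two-sided p-values adjusted by the Benjamini-Hochberg method over the 43394 genes that reached 1 FPKM in 2 libraries or more. For each gene, all groups of a fit shared the same estimate of the spread between ears. The scripts were tested on simulated data. For a line difference of a single gene, ears were also permuted between lines within DAP over all 7776 arrangements. Early filling means 10 and 20 DAP, and late filling means 40 and 50 DAP.

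The genes and lists were chosen with earlier results of these data known. Named genes were the 8 genes, for each of them the 2 named genes with the highest Pearson r over the 20 groups and a group mean of at least 5 FPKM, the 2 most abundant genes of each kind in the sugar list, and marker genes. The sugar list was planned from gene descriptions, but the RefSeq gene table (Zm-B73-REFERENCE-NAM-5.0, used for names only, in which 7 of the 8 genes were found) holds symbols without descriptions, so that 8 genes were taken by symbol. Alternatives were a pseudocount of 0.1, no filter, median ratio scaling over 11635 genes, the ear number as a block, the 2 compared lines alone, 50 against 10 DAP, and leaving out each library. The ear numbers come from the labels, and nothing states that ears of the same number are linked.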

Additional observations from a re-analysis of the deposited data

Results flagged for a closer look

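The course over DAP differed between the 4 lines for 4 of the 7 genes tested, by a moderated F test of the line by DAP terms with limma, where 22.9% of all genes passed. The adjusted p was 1.55e-05 for SWEET4c, 0.0134 for IVR1, 0.0172 for MN1, and 0.0231 for IVR2. For SWEET4c, both T191 and T209 fell between 20 and 30 DAP (-2.08 and -0.99), while T147 and T210 differed by 0.10 and 0.19. For MN1, T191 and T209 differed by -2.33 and -3.57 at the same step, and T147 and T210 by -4.77 and -3.69 at the next step. For IVR1, the difference between 40 and 30 DAP was 3.0002 in T191, 3.58 in T147, 1.97 in T209, and 0.75 in T210, of which the last was not called (limma adjusted p = 0.224). For IVR2, the difference between 20 and 10 DAP was -1.02 in T191, -1.47 in T147, -0.67 in T209, and -1.49 in T210, and its test did not pass without ear 1 of T209 at 10 DAP (limma adjusted p = 0.0834) or ear 1 of T210 at 10 DAP (limma adjusted p = 0.0577), nor under median ratio scaling (limma adjusted p = 0.0518) or with a pseudocount of 0.1 (limma adjusted p = 0.216). SUT1 had a different course (limma adjusted p = 0.0201) only without ear 1 of T191 at 20 DAP, and 0.276 with all libraries.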

How the results depend on the processing

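Results were recomputed under the alternatives named above, and 4088 of 4235 results for single genes kept their direction and their side of the threshold. In 93 a call was lost, in 52 a call was gained, and 2 changed sign. The 2 were INCW1 (-1.06, limma adjusted p = 0.000347) and IVR1 (-0.17, limma adjusted p = 0.415) for 50 against 10 DAP in place of late against early filling. Of the sugar list, 2 genes were called between T209 and T210 under median ratio scaling. In the main analysis 0 were called, where 40.0% of all genes were. Over fits without 1 library, between 3 and 7 genes had a different course in the lines (4 with all libraries). With a pseudocount of 0.1, 2 of the 7 genes were called between T191 and T147 at 50 DAP, with 7.77% of all genes. In the main analysis 0 were called, with 8.69% of all genes. The 2 genes were SWEET4c (1.47, limma adjusted p = 0.00569) and IVR1 (-2.21, limma adjusted p = 0.0497). With this pseudocount, IVR2 lost its different course (limma adjusted p = 0.216). Averaged over DAP, GRMZM2G119941 was also called between T191 and T147 with a pseudocount of 0.1 (-0.93, limma adjusted p = 0.00788). So were SWEET4c at 40 DAP (-1.41, limma adjusted p = 0.00501) and IVR1 at 30 DAP (2.12, limma adjusted p = 0.0399), while INCW1 at 40 DAP was not (limma adjusted p = 0.0503). With no filter, SWEET4c was called between these lines at 40 DAP (limma adjusted p = 0.0469) and INCW1 was not (limma adjusted p = 0.0708). With only the libraries of T191 and T147, IVR2 was called at 10 DAP (-0.54, limma adjusted p = 0.0295) and INCW1 was not at 40 DAP (limma adjusted p = 0.0515). With only those of T209 and T210, MN1 was called (limma adjusted p = 0.0157). Without both T191 libraries that were low in transfer layer genes, an alternative chosen after seeing the data, MN1 was not called between T191 and T147 at 20 DAP (-1.21, limma adjusted p = 0.525). In that contrast 6.30% of genes were called in the main analysis, 4.07% with no filter, and 2.21% without these libraries. Without a filter, 1 gene of the 7 was called in T191 between 20 and 30 DAP, and under median ratio scaling 1 in T209 between 10 and 20 DAP. In the main analysis these were 2 and 3 genes, where 16.2 and 11.4% of all genes were called. Median ratio scaling moved the share of higher calls at 40 DAP between T209 and T210 to 40.9% (62.1% in the main analysis) and at 50 DAP to 56.96% (71.6%). The cause of these changes was not tested. Values under 1 FPKM rest on few reads, and relative depth differed between libraries from 0.612 to 2.30 times the median. No pairing by ear number was seen over the groups as a whole. Ear differences of 190 pairs of groups had a median correlation of 0.0136 (range -0.370 to 0.466, with 35 over 0.1). A median cannot exclude pairing in some groups, nor can 1 block term over all libraries. With the ear number as a replicate block, no difference between groups could change, since every group held both ear numbers. Its direction was thus fixed in advance, and only the estimate of the spread could move. All 280 results for single genes kept their side of the threshold, such as MN1 between T191 and T147 (-1.83, limma adjusted p = 0.000317).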
